A study of Mus musculus with 9 samples.

Results

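The cytosolic ribosomal protein genes encode the protein parts of the ribosomes that translate nuclear transcripts. They were taken as the genes whose symbol starts with Rpl or Rps and a digit, together with Rplp0, Rplp1, Rplp2 and Rpsa. Ribosomal S6 kinase genes and symbols ending as pseudogenes were left out. This gave 50 genes of the 18193 measured, 24 with small-subunit names (Rps, Rpsa) and 26 with large-subunit names (Rpl, Rplp). A further 31 matching symbols, among them Rpl3, Rpl5, Rplp1 and Rps12, stood only on probe sets that the platform annotation gives to several genes at once, so they have no value of their own here. The rule also takes in 7 genes whose product is a paralog or another protein: Rpl3l, Rpl7l1, Rpl22l1, Rpl39l, Rps4l, Rps27l and Rps19bp1. Without them 43 genes remain, 21 of the small and 22 of the large subunit.

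Expression was measured on 9 single-colour oligonucleotide arrays. LSK cells (Lineage-, Sca-1+, c-Kit+), a bone marrow fraction rich in blood-forming stem and progenitor cells, were sorted from wild-type C57/Bl6 mice and co-cultured for 3 days on OP9 stroma, a mouse marrow stromal line. The 3 arrays of the OP9-GFP group came from cultures on the control feeder, and 3 from OP9-DL1, a feeder expressing the Notch ligand Delta-like 1. In the Compound E group (OP9-DL1+CompoundE), also of 3 arrays, a γ-secretase inhibitor that blocks release of active Notch was present at 1 µM. Only non-adherent cells were collected, and their RNA (25 ng for a condition) was amplified and labelled with biotin. All values below are log2 signals, and each gene is read through its brightest probe set. The labels do not say whether replicates came from separate mice or cultures, so the p-values measure the spread between these arrays, which may be technical. The RNA is from mixed cells, so fewer cells of a type and less RNA per cell cannot be told apart.

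A ribosome has a small subunit, which reads the messenger RNA, and a large subunit, which joins amino acids. Its proteins are made in near equal numbers, and their transcripts mostly begin with a run of pyrimidines, the terminal oligopyrimidine (TOP) tract, through which the kinase complex mTORC1 sets their translation. In blood-forming cells the supply of these proteins is known to matter: loss of 1 copy of some of them causes Diamond-Blackfan anaemia, and Rpl22 is needed for αβ T cell development.

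RefSeq promoter windows (GRCm38.p6) were found for 44 of the 50 genes. The windows below run from 60 bases before the listed start to 10 bases after it, 5′ to 3′ on the gene's strand, with runs of 6 or more pyrimidines (C or T) in capitals. They are shown for 5 genes that the results turn on, for the brightest member, Rplp2, and for Rpl39l, which moved apart from the others.
Rps6, chr4:86857358-86857427, minus strand: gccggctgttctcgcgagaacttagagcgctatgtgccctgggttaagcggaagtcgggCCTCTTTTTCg
Rpl14, chr9:120571457-120571526, plus strand: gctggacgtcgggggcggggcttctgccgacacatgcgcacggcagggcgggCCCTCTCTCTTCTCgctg
Rpl12, chr2:32961652-32961721, plus strand: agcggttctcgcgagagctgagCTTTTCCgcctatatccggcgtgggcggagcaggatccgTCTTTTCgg
Rpl22l1, chr3:28805448-28805517, plus strand: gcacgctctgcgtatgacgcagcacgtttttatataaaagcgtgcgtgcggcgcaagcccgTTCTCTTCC
Rps25, chr9:44407654-44407723, plus strand: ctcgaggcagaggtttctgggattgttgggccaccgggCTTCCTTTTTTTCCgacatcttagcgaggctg
Rplp2, chr7:141447591-141447660, plus strand: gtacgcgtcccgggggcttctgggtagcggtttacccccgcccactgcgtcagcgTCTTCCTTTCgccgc
Rpl39l, chr16:10170168-10170237, plus strand: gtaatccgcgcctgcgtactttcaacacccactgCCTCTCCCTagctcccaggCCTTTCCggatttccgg
A pyrimidine run lay across or next to the listed start in each of them but Rps25, whose run ends before it. The longest runs were of 14 bases, in Rpl14 and in Rps25.

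Over the 38 genes with a window that are not paralogs or look-alikes, 13 (34.2%) had a run of 8 or more pyrimidines on the coding strand within 10 bases of the start, against 7.35% of the 27025 genes in the promoter table. CCGGAAG, the core bound by ETS factors such as GABPA, stood on either strand of the window of 300 bases (250 before the start, 50 after) in 19 of 38, against 9.12% of all genes. CACGTG, the E-box that MYC can bind, was in 3 of 38 (7.89%) against 7.24%. GTGGGAA, the core of the Notch partner RBPJ, was in 2 of 38 (5.26%) against 6.39%. AAGATGGC, a YY1 core, was in 2 of 38 (5.26%) against 2.88%, and TATAAA in 4 of 38 (10.5%) against 14.2%. CCGGAAG and AAGATGGC can share the letters AAG, and the reverse complement of CCGGAAG can share its pyrimidines with the tract. A match is a description of letters, not of binding.

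Most ribosomal protein genes gave signals near the top of the array scale in all 3 groups. The mean over 9 arrays was above 13 for 31 of the 50 genes, a range that held 63 genes in all, while the highest single signal of an array was 14.43 to 14.62. Another 4 members lay between 12 and 13, 7 between 9 and 12, and 8 below 9. The brightest was Rplp2, an acidic protein of the ribosomal stalk, at 13.94, and the dimmest Rps16, a small-subunit protein, at 2.79. The array's bacterial control probe sets read 2.24 to 3.64, a range taken as background, so Rps16 and the muscle paralog Rpl3l (3.06) were at background here. A probe set's signal depends on its probes as well as its transcript, so these levels are not ranked between genes.

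**Figure D1:**
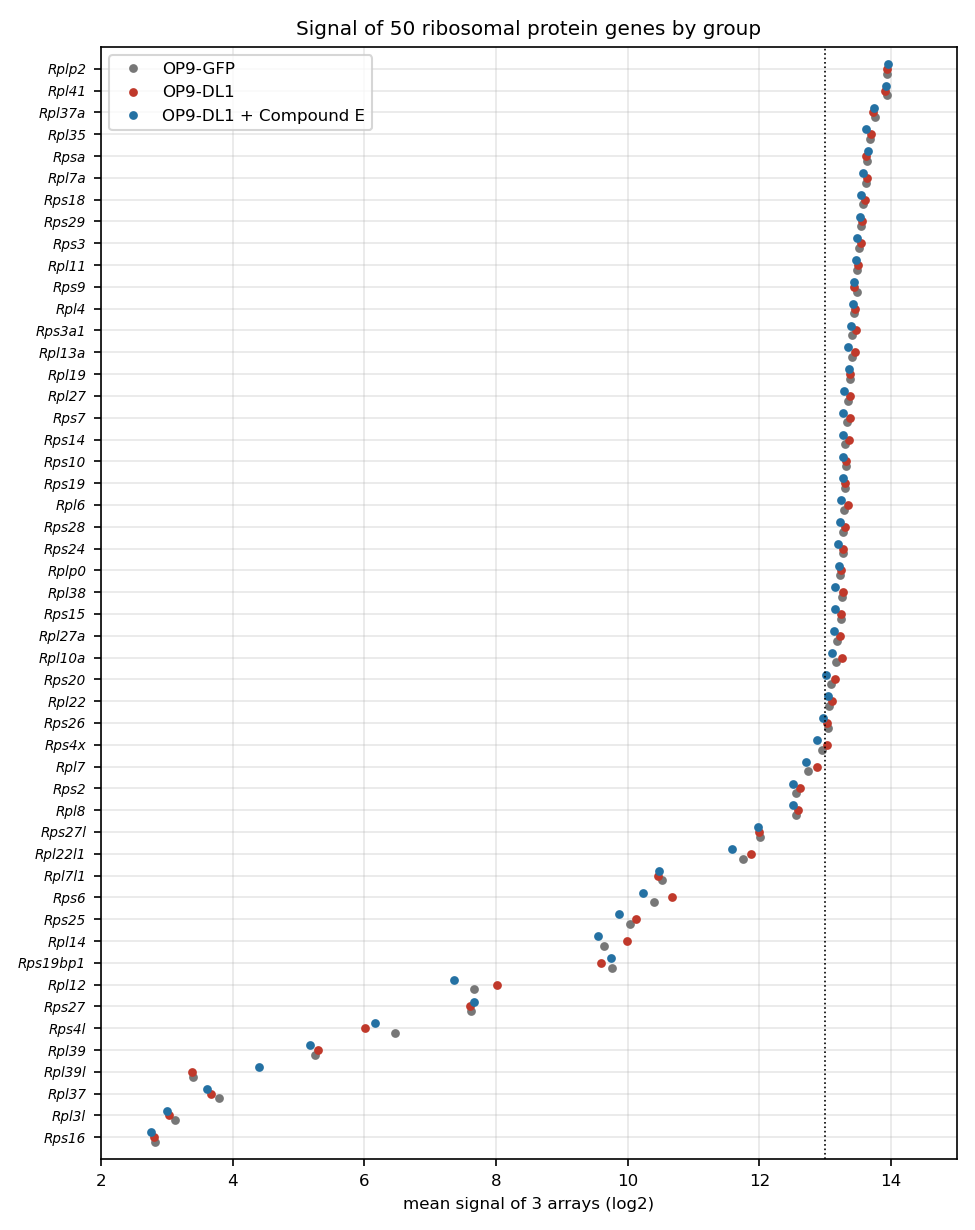
Mean log2 signal (horizontal axis) of each of the 50 genes in the 3 groups, ordered by the mean over 9 arrays, with the dotted line at 13. The 31 genes above the line have their group means close together, while Rps6, Rpl14, Rpl12, Rpl39l and Rps4l show a spread between groups that can be seen by eye.

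Read through their brightest probe sets, the members had small ranges. The range from the lowest to the highest of the 9 arrays was under 0.2 for 36 of 50 genes and under 0.3 for 39, and a range under 0.3 held for 12.8% of all genes. Its median was 0.16 for the members and 0.56 for all genes, most of which are dimmer. Bright genes outside the members also had small differences, though larger ones than the members. The median absolute log2 difference of the 45 member probe sets above 13 was 0.030 on OP9-DL1 and 0.068 with Compound E against OP9-DL1. For all 83 probe sets with 1 symbol above 13, which include those 45, it was 0.036 and 0.075. For the 32 other genes above 13, each read through its brightest probe set, it was 0.075 and 0.10. Over all genes it was 0.15 and 0.23. Dimmer probe sets of some of the same genes gave far larger differences, described after the comparisons, so the small ranges are those of these signals and do not show that the transcripts stayed level. Rplp2 read 13.94, 13.94 and 13.94 on OP9-GFP, 13.94, 13.93 and 13.93 on OP9-DL1 and 13.99, 13.94 and 13.93 with Compound E. Rplp0, the stalk base protein and a common reference gene, read 13.24, 13.23 and 13.22, then 13.23, 13.21 and 13.28, then 13.20, 13.23 and 13.20. For both genes the 3 groups overlapped. Of the 50 genes 33 passed the test in none of the 3 comparisons, and for 31 of those 33 the difference was within 0.1 either way in each comparison taken alone. Summed on the linear scale, the members took 3.78 to 3.81% of the signal of all genes on OP9-GFP, 3.85 to 3.91% on OP9-DL1 and 3.67 to 3.70% with Compound E, 3 ranges that did not overlap.

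The first comparison, of OP9-DL1 with OP9-GFP, asks what a Notch ligand on the feeder changes. Rpl12, Rpl14, Rps6 and Rpl7 rose, by 9.27 to 28.2% on the linear scale, and Rps4l fell, while the other 45 genes did not pass the test. At a limma adjusted p under 0.05 the 4 rises and 1 fall stood against 15.9% of all genes called higher and 16.7% called lower, 32.6% together. No member passed this test with a 2-fold difference, against 6.87% of all genes. The median log2 difference over the 50 genes was 0.016, and over all genes -0.021. The difference was positive for 34 of 50. With each array centred on its median, the members' median reversed to -0.027, and without 1 array it was 0.0070 to 0.027. With a gene's probe sets averaged, 10 members rose in place of 4. The share of all genes called higher in that refit is not given here, so this is not a result about the members. The arrays of the groups did not overlap for 16 of 50 genes, against 43.8% of all genes.

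Rpl12 encodes a protein at the base of the stalk where elongation factors bind. It read 7.69, 7.60 and 7.68 on OP9-GFP, 8.06, 8.04 and 7.95 on OP9-DL1, and 7.45, 7.33 and 7.30 with Compound E. The OP9-DL1 arrays were the highest and the Compound E arrays the lowest, with no overlap between any pair of groups. The rise on OP9-DL1 was 0.36 ± 0.082 (SE, n = 3 a group; limma adjusted p = 0.00257).

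Rpl14, a large-subunit protein, read 9.66, 9.61 and 9.67 on OP9-GFP, 10.03, 9.97 and 9.99 on OP9-DL1 and 9.63, 9.38 and 9.65 with Compound E. Every OP9-DL1 array stood above the other 6, and the other groups overlapped. It was higher on OP9-DL1 than on OP9-GFP by 0.35 ± 0.068 (SE; limma adjusted p = 0.000621).

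Rps6, the small-subunit protein that S6 kinase phosphorylates, read 10.38, 10.40 and 10.40 on OP9-GFP, 10.68, 10.70 and 10.63 on OP9-DL1 and 10.19, 10.16 and 10.35 with Compound E. The 3 groups did not overlap. Its OP9-GFP readings of 10.40 were equal values, which lowers the spread. The rise on OP9-DL1 was 0.28 ± 0.054 (SE; limma adjusted p = 0.000663). Its other probe set was near background, with a mean of 3.69, and with both averaged the call ended (0.17, adjusted p = 0.261).

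Rpl7, a large-subunit protein, read 12.73, 12.75 and 12.74 on OP9-GFP, 12.83, 12.89 and 12.88 on OP9-DL1 and 12.69, 12.65 and 12.76 with Compound E. Again the OP9-DL1 arrays were the highest. The rise of 0.13 ± 0.037 (SE; limma adjusted p = 0.0137) lost its call without OP9-GFP replicate 1 (0.0623), without OP9-DL1 replicate 2 (0.0501), with each array centred on its median (0.194) and without an intensity trend (0.141).

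Rps4l, a paralog of the small-subunit gene Rps4x, was the 1 gene that fell. It read 6.51, 6.57 and 6.33 on OP9-GFP, 6.17, 5.98 and 5.88 on OP9-DL1 and 6.35, 5.92 and 6.20 with Compound E. The first 2 groups did not overlap, and the Compound E arrays lay across both. It fell by 0.46 ± 0.134 (SE; limma adjusted p = 0.0131), and this call was lost without OP9-GFP replicate 2 (0.0638) or OP9-DL1 replicate 3 (0.0617).

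**Figure D2:**
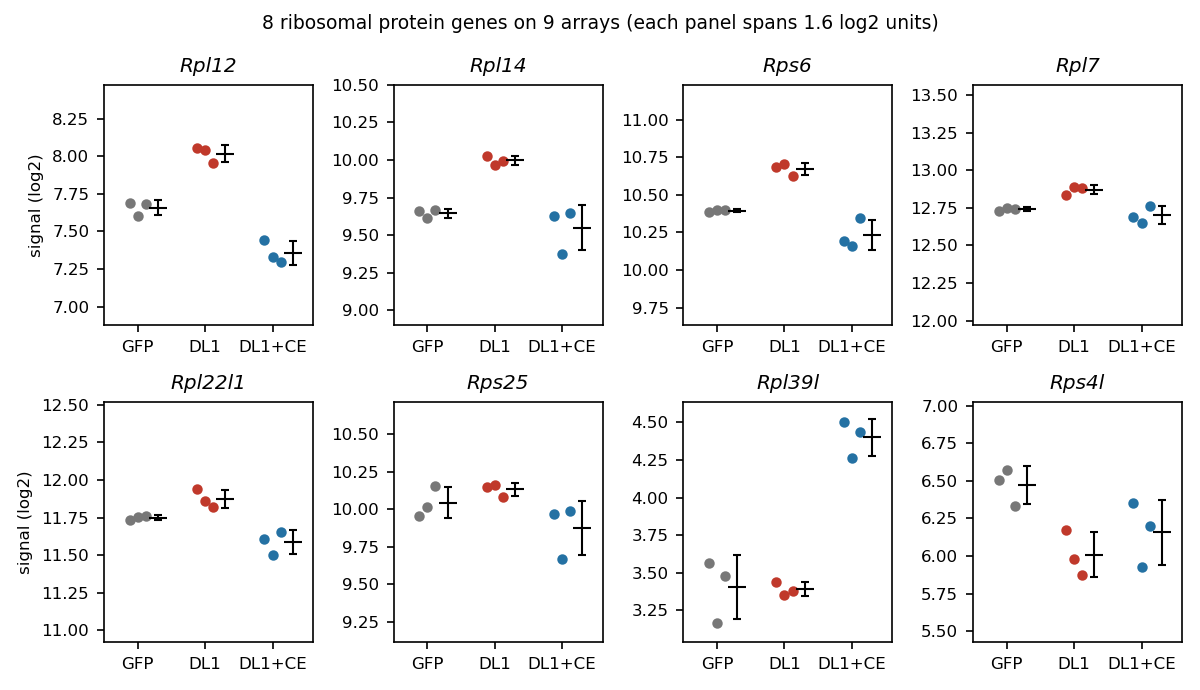
Log2 signal (vertical axis, 1.6 units in each panel) of 8 genes on the 9 arrays by group, with the mean and SD of 3 arrays beside the points (DL1+CE is the Compound E group). Rpl12, Rpl14, Rps6 and Rpl7 are highest on the 3 OP9-DL1 arrays, and Rpl39l is highest on the 3 Compound E arrays.

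Compound E cultures were then compared with OP9-DL1, which asks what a γ-secretase inhibitor changes on the same feeder. Here 15 members fell and 1 rose, against 21.6% of all genes called lower and 25.1% called higher, 46.7% together. On the linear scale Rpl12 fell by 36.7%, Rpl14 fell by 26.6% and Rps6 fell by 26.2%, and the other falls were smaller. Rpl39l alone passed with a fitted difference of 2-fold, over a base at background, against 9.42% of all genes. The median over the 50 genes was -0.068, while that over all genes was 0.080, and the difference was negative for 41 of 50. Relative to the median of all genes 47 members were lower and 3 higher. With each array centred on its median 5 fell and 2 rose, with a median of -0.015, and without an intensity trend 5 fell. The shares of all genes called under these settings are not given here. The arrays did not overlap for 28 of 50 genes, against 52.6% of all genes. These values and those of the first comparison share the OP9-DL1 arrays, so they are given side by side and are not independent.

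Rpl12 fell by 0.66 ± 0.082 (SE; limma adjusted p = 4.85e-06), Rpl14 fell by 0.45 ± 0.068 (4.11e-05) and Rps6 fell by 0.44 ± 0.054 (4.36e-06), from the array values above. Rpl7 fell by 0.17 ± 0.037 (0.00142).

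Rpl22l1, the paralog of Rpl22 that can take its place in the large subunit, read 11.73, 11.75 and 11.76 on OP9-GFP, 11.94, 11.86 and 11.82 on OP9-DL1 and 11.61, 11.50 and 11.65 with Compound E. The groups did not overlap, with OP9-DL1 highest and Compound E lowest. It fell by 0.29 ± 0.047 (SE; limma adjusted p = 8.27e-05) from OP9-DL1 to Compound E, while its difference of 0.13 between OP9-DL1 and OP9-GFP did not pass the test (0.0517). Through its brightest probe set Rpl22 itself read 13.06, 13.07 and 13.06, then 13.12, 13.03 and 13.13, then 13.07, 13.02 and 13.02. By that probe set its groups overlapped in both comparisons. A dimmer probe set of Rpl22 gave 0.50 and -0.70, and both differences passed the test over all probe sets. Whether Rpl22 stayed level is therefore not shown.

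Rps25, a small-subunit protein used in internal initiation, read 9.95, 10.02 and 10.16 on OP9-GFP, 10.15, 10.16 and 10.08 on OP9-DL1 and 9.97, 9.67 and 9.99 with Compound E. The second Compound E array was the lowest of all 9. The fall of 0.26 ± 0.078 (SE; limma adjusted p = 0.0135) from OP9-DL1 was lost without that array (log2 -0.15, adjusted p = 0.0665), with each array centred on its median (0.0509) and without an intensity trend (0.0521).

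The other 9 falls are named after their values were seen. They were those of Rps4x, Rpl10a, Rps20, Rpl38, Rps7, Rpl13a, Rpl6, Rpl27a and Rps14, between -0.16 and -0.090 on the log2 scale, or from -10.6 to -6.04% on the linear scale. Rpl10a, a large-subunit protein, read 13.25, 13.24 and 13.24 on OP9-DL1 and 13.10, 13.07 and 13.13 with Compound E, with 13.14, 13.16 and 13.19 on OP9-GFP. Its arrays did not overlap, and the difference from OP9-DL1 was -0.14 ± 0.032 (SE; limma adjusted p = 0.00152). Rps14, a small-subunit protein whose loss underlies the anaemia of the human 5q deletion, read 13.30, 13.30 and 13.30 on OP9-GFP, 13.37, 13.34 and 13.37 on OP9-DL1 and 13.27, 13.29 and 13.24 with Compound E. The difference was -0.090 ± 0.031 (SE; limma adjusted p = 0.0259). Each of these 9 calls was lost under 1 or more of the alternatives. That of Rps4x turned to 0.20 when its probe sets were averaged, the other one having a mean of 4.99, above the bacterial control range.

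Rpl39l, a paralog of Rpl39 known from male germ cells, was the 1 gene that rose. It read 3.57, 3.17 and 3.48 on OP9-GFP, 3.44, 3.35 and 3.38 on OP9-DL1 and 4.51, 4.26 and 4.43 with Compound E. The first 6 arrays were at background and the 3 Compound E arrays above it. The fitted difference from OP9-DL1 was 1.01 ± 0.129 (SE; limma adjusted p = 6.02e-06). Since it starts from background its size is not measured, and on the log2(value + 32) scale it was 0.32. Against the highest bacterial control signal, the Compound E mean was at least 1.69-fold higher. Rpl39, the ubiquitous gene, read 5.25, 5.24 and 5.25, then 5.28, 5.34 and 5.25, then 5.20, 5.14 and 5.21, with no call.

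**Figure D3:**
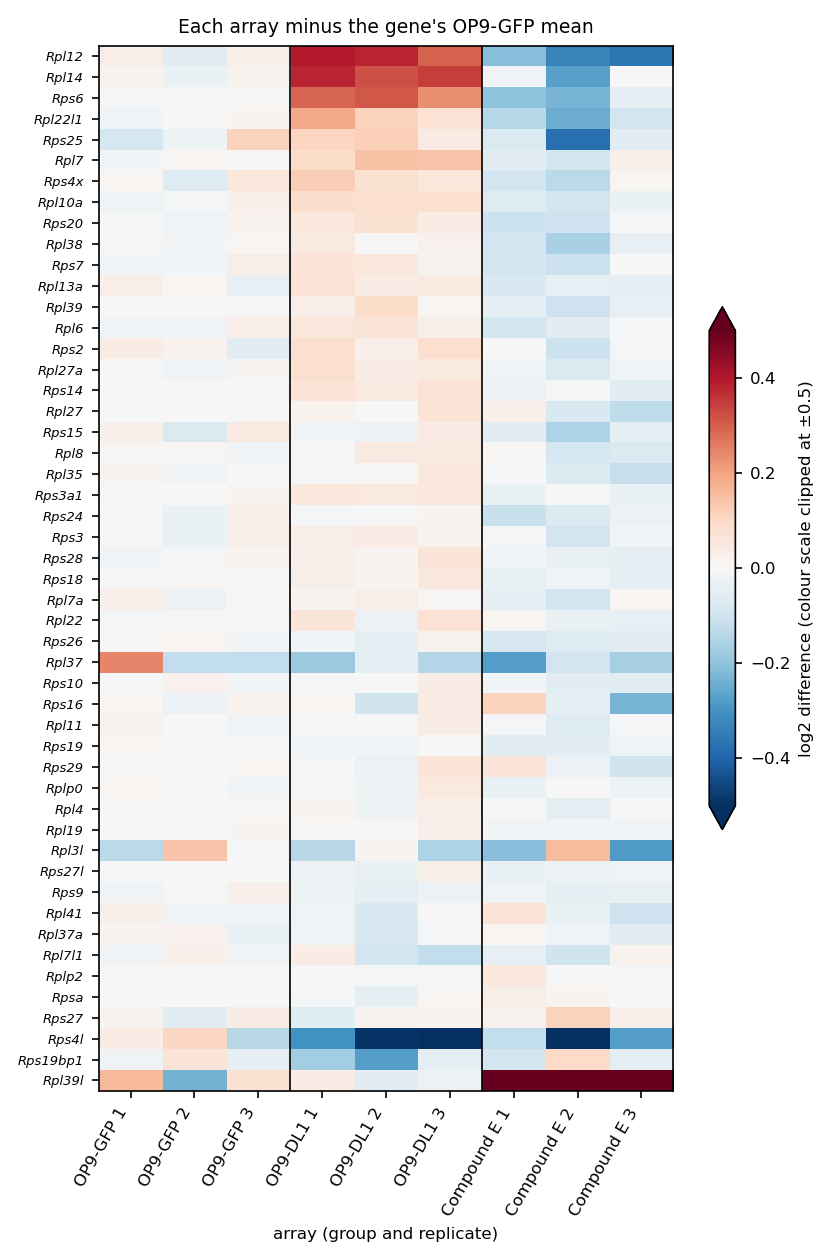
Each of the 50 genes (rows) on each of the 9 arrays (columns), coloured by its log2 difference from the gene's OP9-GFP mean, with the scale clipped at 0.5 either way and genes ordered by Compound E minus OP9-DL1. The top rows are higher on OP9-DL1 and lower with Compound E, most rows are near 0, and Rpl39l in the last row is higher on the 3 Compound E arrays.

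Compound E cultures were last compared with OP9-GFP, which sets the inhibited cultures beside the control feeder. Rpl39l rose and Rpl12, Rpl22l1 and Rps6 fell, against 12.1% of all genes called higher and 10.6% called lower, 22.7% together. No member passed with a 2-fold difference, against 1.36% of all genes. The median over the 50 genes was -0.042 and over all genes 0.047, and 46 of 50 differences were negative. The arrays did not overlap for 17 of 50 genes, against 34.8% of all genes. Rpl39l was higher, with a fitted difference of 1.00 ± 0.129 (SE; limma adjusted p = 3.86e-05) that starts from OP9-GFP arrays at background. It was 0.32 on the log2(value + 32) scale, and the bound of at least 1.69-fold applies here too. Rpl12 fell by 0.30 ± 0.082 (0.0144), a call lost without OP9-GFP replicate 1 (0.0613). Rpl22l1 fell by 0.16 ± 0.047 (0.0198), a call lost without any 1 of the 3 OP9-GFP arrays (0.0525 to 0.0605) or without Compound E replicate 2 (0.0776). Rps6 fell by 0.16 ± 0.054 (0.0429), and left-out arrays ended that call in 7 of 9 cases. The fall of Rpl14 to below its control level was not shown, at -0.096 ± 0.068 (0.343).

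Members known from blood disease were read through their brightest probe sets first. Of the 20 Diamond-Blackfan anaemia genes listed, 11 were measured, and none passed the limma test on OP9-DL1 or between Compound E and OP9-GFP, nor an unadjusted p under 0.05 (0 genes). Between Compound E and OP9-DL1, Rps7 fell by 0.11 ± 0.036 (SE; limma adjusted p = 0.0157), while the median of the 11 was -0.055 and 5 of them were lower at an unadjusted p under 0.05. Of all genes, the limma test called 32.6% on OP9-DL1 and 22.7% between Compound E and OP9-GFP. Between Compound E and OP9-DL1 it called 21.6% lower. No share of all genes was taken at the unadjusted threshold, so the 5 are not a result about these genes. Rps10, also among the 11, had a dimmer probe set that differed by -0.076 and 0.068 in the first 2 comparisons and did not pass the test. Dimmer probe sets gave larger differences for 2 of the 11. That of Rps24 differed by 0.68 and -1.02 in the first 2 comparisons and that of Rpl35 by 0.41 and -0.56, and these 4 differences passed the test over all probe sets (limma adjusted p = 0.000592, 6.83e-06, 0.00254 and 0.000109). Rps19, the gene most often affected in that anaemia, read 13.32, 13.30 and 13.30 on OP9-GFP, 13.29, 13.29 and 13.31 on OP9-DL1 and 13.25, 13.25 and 13.28 with Compound E. Its difference of -0.035 between Compound E and OP9-DL1 did not pass the test, with an interval of 2 SE either way from -0.096 to 0.027. Rpl11, which binds Mdm2 when ribosome assembly fails, differed by 0.0087 on OP9-DL1 (interval -0.056 to 0.073) and by -0.036 with Compound E (interval -0.10 to 0.028).

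The 7 paralogs and look-alikes held 1 fall on OP9-DL1 and 1 rise and 1 fall in each of the other comparisons, those of Rps4l, Rpl39l and Rpl22l1 given above. Of all genes, 16.7% were called lower on OP9-DL1. With Compound E, 25.1% were called higher and 21.6% lower against OP9-DL1, and 12.1% and 10.6% against OP9-GFP. In a list of 7 genes such counts are not a result about the list. Rpl7l1, a large-subunit assembly factor, differed by -0.061 and 0.021 in the first 2 comparisons, with no call.

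Rpsa, the small-subunit protein also known as the laminin receptor, read 13.58 to 13.66 over the 9 arrays. Rps27 and Rps27l, a paralog pair of which the second is a p53 target, did not pass the test in any comparison. Rps27 read 7.55 to 7.73 and Rps27l 11.97 to 12.03. Rps19bp1, which codes for a binding partner of RPS19 and not a ribosomal protein, differed by -0.17 on OP9-DL1 (limma adjusted p = 0.0809) and by 0.15 with Compound E (0.0861). Fau, whose product carries the small-subunit protein eS30 and lies outside the naming rule, read 13.33 to 13.37 on OP9-GFP, 13.24 to 13.28 on OP9-DL1 and 13.33 to 13.34 with Compound E. Its arrays did not overlap between OP9-DL1 and either other group, yet the difference of -0.077 did not pass the test (0.0783).

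By subunit, on OP9-DL1, 1 of 21 small-subunit genes and 3 of 22 large-subunit genes rose and none fell, with medians of 0.032 and 0.026. Both shares were below the 15.9% of all genes called higher. With Compound E against OP9-DL1, 6 of 21 and 8 of 22 fell and none rose, against 21.6% of all genes called lower, with medians of -0.072 and -0.081. Against OP9-GFP the medians were -0.040 and -0.048, with 1 fall in each, against 10.6% of all genes called lower.

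The size of a difference varied with the brightness of the probe set, though not in 1 direction over the whole range. Over the member probe sets with 1 symbol, the median absolute log2 difference on OP9-DL1 was 0.072 up to 6, 0.23 from 6 to 10, 0.081 from 10 to 12, 0.062 from 12 to 13 and 0.030 above 13. With Compound E against OP9-DL1 it was 0.16, 0.43, 0.0997, 0.13 and 0.068 in the same order, so that it was largest at 6 to 10 and smallest above 13. For all 12433 probe sets with 1 symbol at 6 to 10 it was 0.23 and 0.34 in these 2 comparisons, so differences of that size were not particular to the members. Over the 31 members above 13, no gene passed the limma test on OP9-DL1 (1 at an unadjusted p under 0.05) and 8 fell with Compound E against OP9-DL1, with a median of -0.067 and no value beyond -0.14. Over the 9 members between 6 and 13 that are not look-alikes, 4 rose on OP9-DL1 (median 0.089) and 6 fell with Compound E (median -0.17). Of the 32 other genes above 13, 1 rose and 10 fell on OP9-DL1, and 10 rose and 7 fell with Compound E against OP9-DL1. These counts stand against 15.9% of all genes called higher and 16.7% called lower on OP9-DL1, and 25.1% and 21.6% with Compound E. No share was taken over all genes between 6 and 13.

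The same gene could be read through a bright and a dim probe set in 12 cases, taken after the data were seen as genes with a kept probe set above 12 and another at 6 to 12. On OP9-DL1 the median difference was 0.024 by the bright and 0.19 by the dim probe sets, and with Compound E against OP9-DL1 -0.069 and -0.37. In a fit over all 34945 probe sets with 1 symbol, 5 of the 12 dim ones rose on OP9-DL1 and none fell, and 7 fell with Compound E and none rose. Of all these probe sets, 28.3% were called on OP9-DL1 and 42.4% with Compound E, in either direction. No share was taken over probe sets of the same brightness, so these counts are not shown to be particular to the 12 genes. Rps24, a small-subunit protein, differed by 0.0022 on OP9-DL1 and -0.074 with Compound E through its bright probe set (mean 13.24), and by 0.68 and -1.02 through the dim one (mean 6.79; limma adjusted p = 0.000592 and 6.83e-06). Rps20 differed by 0.054 and -0.13 through the bright probe set and by 0.56 and -0.84 through the dim one (0.000947 and 1.04e-05). For Rpl22 the dim probe set gave 0.50 and -0.70 (5.25e-05 and 8.31e-07), beside 0.035 and -0.057 by the bright one.

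Other dim probe sets that passed the test were those of Rpl35 (0.41 and -0.56) and Rps3 (0.27 and -0.33) in both comparisons, and of Rps18 (-0.47) and Rpl41 (-0.41) with Compound E alone. Those of Rps9 (-0.15 and 0.20), Rps10 (-0.076 and 0.068), Rpl37a (-0.013 and 0.0028), Rpl7 and Rpl13a did not pass it. Which transcripts or transcript ends each dim probe set binds was not tested. Over all 106 member probe sets with 1 symbol, 12 rose and 1 fell on OP9-DL1, against 28.3% of all probe sets called. With Compound E against OP9-DL1, 3 rose and 45 fell, against 42.4%. Counted by gene, 10 of 50 had a probe set that rose on OP9-DL1 and 26 of 50 had one that fell with Compound E. A gene with several probe sets has several chances of a call, and the same share was not taken over all genes. These 2 counts are therefore not a result about the members. Against OP9-GFP, 2 rose and 6 fell, against 19.4%. The 110 probe sets that the annotation shares between a member symbol and other genes had medians of 0.034 and -0.082 in the first 2 comparisons.

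**Figure D4:**
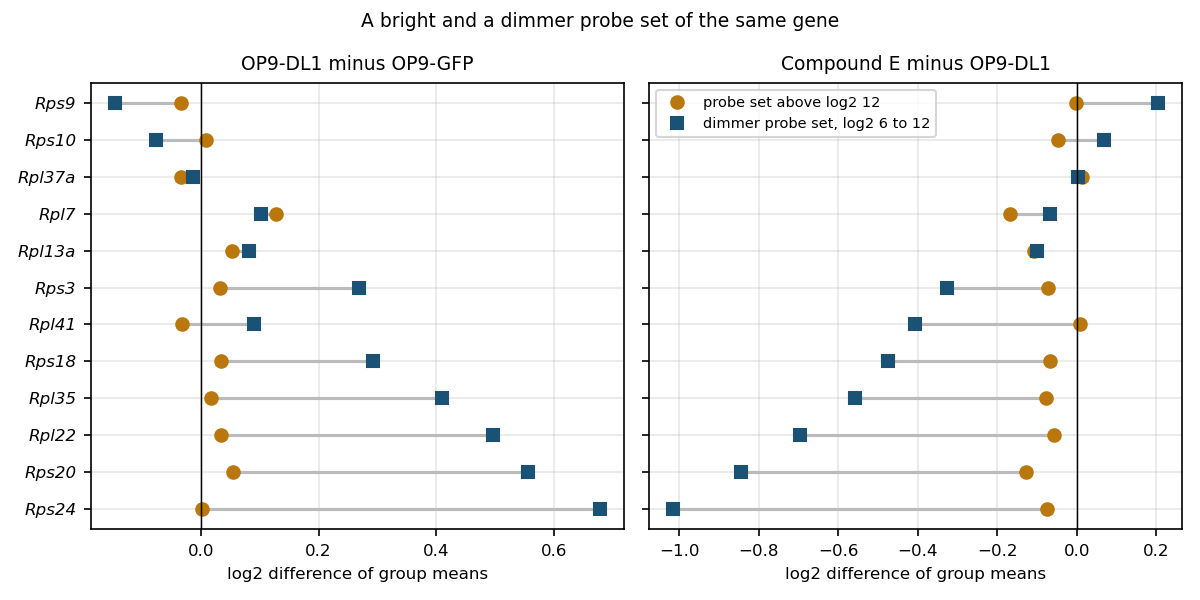
Log2 difference of group means (horizontal axis) for 12 genes read through a bright probe set (circles, mean above 12) and a dimmer one (squares, mean 6 to 12), for OP9-DL1 minus OP9-GFP and Compound E minus OP9-DL1. The circles stay close to 0, while the squares of Rps24, Rps20, Rpl22 and Rpl35 reach 0.41 to 0.68 on OP9-DL1 and -1.02 to -0.56 with Compound E.

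The wider translation machinery was read from lists. Their counts, and those of the marker lists, stand against the shares of all genes called. These were 15.9% higher and 16.7% lower on OP9-DL1, 25.1% and 21.6% with Compound E against OP9-DL1, and 12.1% and 10.6% against OP9-GFP. Of 25 genes of RNA polymerase I and ribosome assembly, 10 rose and 1 fell on OP9-DL1 (median 0.11), 1 rose and 16 fell with Compound E against OP9-DL1 (median -0.36), and 11 fell against OP9-GFP (median -0.18). Dkc1, the pseudouridine synthase dyskerin that modifies ribosomal RNA, had means of 10.59 ± 0.069 on the control feeder, 10.95 ± 0.055 on OP9-DL1 and 10.11 ± 0.085 under Compound E (SD, n = 3), with no overlap between groups. It rose by 0.36 ± 0.056 (SE; limma adjusted p = 8.03e-05) and then fell by 0.84 ± 0.056 (2.88e-09). Nop58, a box C/D small nucleolar ribonucleoprotein, stood 0.29 higher on OP9-DL1 and 0.76 lower with Compound E, and both differences passed the test. Gnl3, the nucleolar protein nucleostemin, rose by 0.19 and fell by 0.51.

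Of 21 translation factors and other TOP transcripts, 3 rose and none fell on OP9-DL1 (median 0.056), so that the share that rose was near that of all genes. With Compound E against OP9-DL1, 1 rose and 12 fell (median -0.11), and against OP9-GFP 3 fell. Eif4a2, a helicase of the initiation complex, rose by 0.35 and fell by 0.48 between the same groups, Eif2s3x, a subunit of the factor that brings the initiator tRNA, rose by 0.26 and fell by 0.36, and Hnrnpa1, an RNA-binding protein, rose by 0.12 and fell by 0.16. Eef1d, an elongation factor subunit, differed by 0.061 on OP9-DL1 without passing the test and fell by 0.17 with Compound E.

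Of 13 chaperones and transporters of ribosomal proteins, 3 rose and 1 fell on OP9-DL1 (median 0.074), and 2 rose and 8 fell with Compound E against OP9-DL1 (median -0.18). Against OP9-GFP 1 rose and 4 fell (median -0.11). Ipo5, an importin that carries ribosomal proteins into the nucleus, rose by 0.29 and fell by 0.56, and Heatr3, which serves Rpl5, rose by 0.22 and fell by 0.41. Tsr2, the chaperone of Rps26, and Grwd1, the chaperone of Rpl3, fell by 0.63 and 0.54 with Compound E against OP9-DL1. Pdcd2l went the other way, from -0.33 on OP9-DL1 to a rise of 0.62.

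Of 16 mTORC1 components and other regulators of TOP and ribosomal genes, 4 rose and 1 fell on OP9-DL1 (median 0.0096), 5 rose and 7 fell with Compound E against OP9-DL1 (median -0.049), and 2 rose and 4 fell against OP9-GFP (median -0.017). Myc, a transcription factor and known Notch target that drives ribosome production, read 8.31, 8.25 and 8.15 on OP9-GFP, 9.20, 9.22 and 9.42 on OP9-DL1 and 7.50, 7.55 and 7.21 with Compound E. It rose by 1.05 ± 0.096 (SE; limma adjusted p = 1.87e-07) and fell by 1.86 ± 0.096 (9.99e-11). Its partner Max rose by 0.24 and fell by 0.35, the TOP-binding protein Tia1 rose by 0.43 and fell by 0.73, and the cap-binding protein Eif4e rose by 0.12 and fell by 0.36.

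The 76 mitochondrial ribosomal protein genes, which code for the separate ribosome of that organelle, were counted too. On OP9-DL1, 3 rose and 20 fell (median -0.10), and with Compound E against OP9-DL1, 24 rose and 9 fell (median 0.077). Against OP9-GFP 3 rose and 10 fell (median -0.021). Mrpl4 read 8.44, 8.51 and 8.34 on OP9-GFP, 7.85, 7.78 and 7.95 on OP9-DL1 and 8.77, 8.64 and 8.50 with Compound E, so that the OP9-DL1 arrays were the lowest. It fell by 0.57 ± 0.085 (SE; limma adjusted p = 4.57e-05) and then rose by 0.78 ± 0.085 (1.06e-06). Mrpl33 and Mrps31 stood 0.36 and 0.33 lower on OP9-DL1, and rose by 0.46 and 0.44 with Compound E. Mrps6 was an exception, with a rise of 0.39 and then a fall of 0.41.

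**Figure D5:**
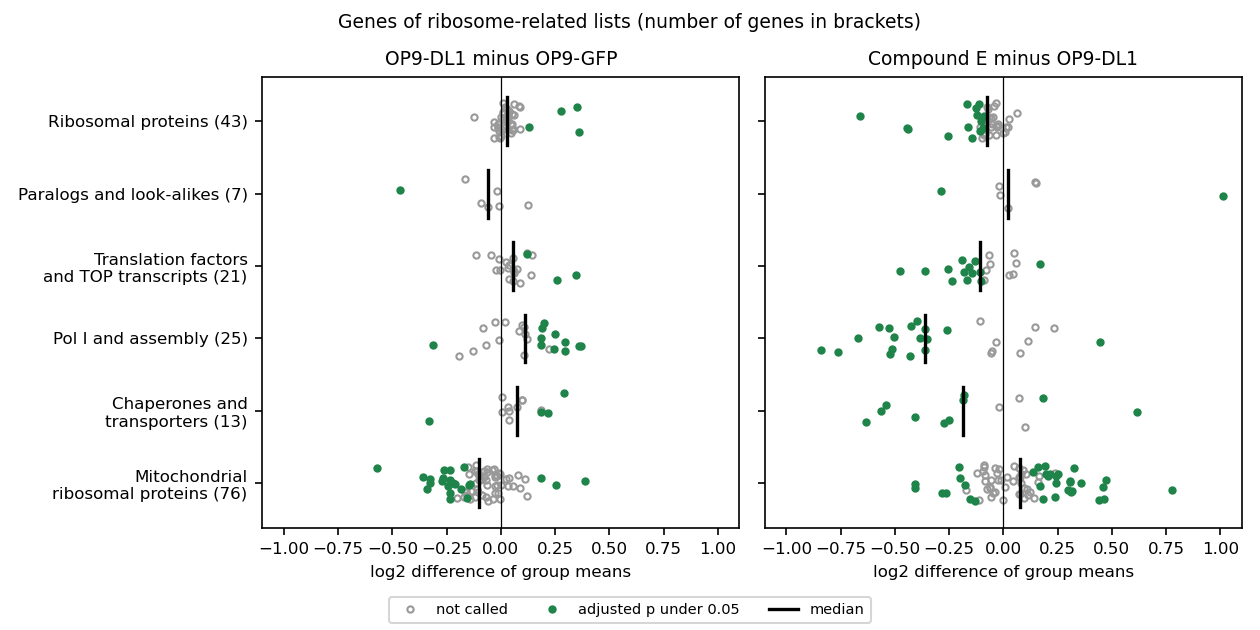
Log2 difference of group means (horizontal axis) for each gene of 6 lists, for OP9-DL1 minus OP9-GFP and Compound E minus OP9-DL1, with filled points for an adjusted p under 0.05 and a bar at the list's median. The medians of the assembly genes are 0.11 and -0.36, those of the 43 ribosomal protein genes 0.030 and -0.074, and those of the mitochondrial ribosomal protein genes -0.10 and 0.077.

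Markers of the cells in the cultures moved with these groups. Of 14 measured blood-cell markers 4 rose and 9 fell on OP9-DL1, and 8 rose and 4 fell with Compound E against OP9-DL1. All 14 were above the range of the bacterial controls, including Kit and Ptprc, which codes for CD45. Of 20 markers of stroma, 17 rose and none fell on OP9-DL1 (median 0.75), and 1 rose and 18 fell with Compound E against OP9-DL1 (median -0.64). Their summed share of the signal was 0.229 to 0.235% on OP9-GFP, 0.357 to 0.361% on OP9-DL1 and 0.219 to 0.231% with Compound E. Thy1 alone was near the bacterial control range, with group means of 3.47, 4.76 and 3.66.

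All 11 measured megakaryocyte markers rose on OP9-DL1 (median 1.66) and fell with Compound E against OP9-DL1 (median -2.19), with summed shares of 0.0992 to 0.102%, 0.271 to 0.274% and 0.0654 to 0.0669% in the 3 groups. Of 12 macrophage markers 11 fell (median -1.64) and then 10 rose (median 1.69), with shares of 0.331 to 0.337%, 0.159 to 0.162% and 0.379 to 0.382%. C1qa was at background in all groups. Of 14 markers of cycling cells 1 rose and 8 fell on OP9-DL1 (median -0.17), and 4 rose and 1 fell with Compound E against OP9-DL1 (median -0.022). Against OP9-GFP the Compound E arrays had 3 higher and 6 lower blood-cell markers, 3 and 7 stromal, 1 and 10 megakaryocyte, 8 and 2 macrophage and 0 and 5 cycling markers. The ribosomal protein values were not separated by cell type, and the part of these markers' cells in them was not tested.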

How the data were processed

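Expression was measured in 9 samples, 3 per group, grouped by the sample titles. The authors deposited 1 log2 signal per probe set and array for 45101 probe sets. MAS5 and GCRMA 2.4.1 are the tools listed in the submitters' processing notes, and the sources used here do not say which of them made these values. Of the probe sets 34945 had 1 gene symbol in the platform annotation, and symbols were updated through Entrez IDs with a RefSeq table of GRCm38.p6. For a gene with several (18193 genes in all), the brightest by its mean over 9 arrays was kept.

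The deposited log2 values of all 9 arrays entered 1 limma fit (version 3.58.1, R 4.3.3; lmFit, and eBayes with trend), without normalization, filter or covariate. Benjamini-Hochberg adjustment ran over the 18193 genes within a comparison, and 0.05 was the threshold. The procedure was tested on simulated data, with 50 genes of the whole table changed by each fold in OP9-DL1. It recovered 0% of 1.1-fold, 58% of 1.5-fold and 92% of 2-fold changes, with 1 false call. These shares are for genes of any brightness and are not those of the members. SD is between the 3 arrays of a group, and SE is from the model. Equal values stood on 2 or more arrays of a group for 10 members and 21.9% of all genes, which lowers their spread. The number of arrays limits the precision, with a median SE of 0.036 for members and 0.10 for all genes.

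Named genes were, among members that passed the test without overlap, the 6 largest rises and falls for each of OP9-DL1 against OP9-GFP and Compound E against OP9-DL1, and 3 for Compound E against OP9-GFP. A fixed set of well-known members, the brightest and dimmest member, and up to 3 genes with the smallest p from each list and comparison were added. The members and lists were chosen with earlier results of these data known. Alternatives were log2(value + 32), quantile normalization, arrays centred on their medians, a brightness filter, the mean of probe sets, no intensity trend, 6 arrays, the replicate block, each array left out and a 2-fold threshold. Genes without equal values, no look-alikes, shared probe sets and all probe sets were added after the data were seen.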

Additional observations from a re-analysis of the deposited data

How the results depend on the processing

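On OP9-DL1, Rpl12 and Rpl14 kept their calls under each of 18 refits that gave them a value. With Compound E against OP9-DL1, so did Rpl12, Rpl14, Rps6, Rpl7, Rpl22l1 and Rpl39l, and against OP9-GFP so did Rpl39l. The brightness filter left out Rpl39l, and the refit on genes without equal values left out Rps6. With each array centred on its median, the median of the members on OP9-DL1 reversed to -0.027 with 2 falls; with Compound E against OP9-DL1, 2 rose and 5 fell with a median of -0.015, and against OP9-GFP 1 fell. Among the 44 members above the median brightness, no gene fell on OP9-DL1, none rose in the other comparisons (0 in each), and 25 fell with Compound E against OP9-DL1. With a gene's probe sets averaged, 10 rose on OP9-DL1, 3 rose and 23 fell with Compound E against OP9-DL1, 6 fell against OP9-GFP, and Compound E against OP9-DL1 reversed to -0.25 for Rpl41 and 0.20 for Rps4x. Without an intensity trend 5 fell with Compound E against OP9-DL1 and 1 against OP9-GFP. At least 2-fold, the calls came to 0 but for Rpl39l with Compound E against OP9-DL1. Without look-alikes the fall on OP9-DL1 and the rise in both other comparisons came to 0. Over all probe sets, 10 genes rose on OP9-DL1, 3 rose and 26 fell with Compound E against OP9-DL1, and 2 rose against OP9-GFP. These counts of genes with any called probe set have no matching share over all genes. The counts under the refits, among them the brightness filter and averaged probe sets, stand here without their own shares either. A change in such a count is therefore not a result about the members. With each array left out in turn, 3 to 6 genes rose and 0 to 1 fell on OP9-DL1 (median 0.0070 to 0.027), 1 to 2 rose and 10 to 17 fell with Compound E against OP9-DL1 (median -0.076 to -0.061), and 1 rose and 0 to 5 fell against OP9-GFP (median -0.052 to -0.036); 0 fell there without OP9-GFP replicate 1, 1 without OP9-GFP replicate 2 or 3 or Compound E replicate 2, and 5 without Compound E replicate 3. Same-numbered arrays did not deviate together (r from -0.11 to 0.12), so no pairing by number was seen, which does not tell how the cultures were set up. With the replicate block 4 rose and 1 fell, 1 rose and 14 fell, and 1 rose and 2 fell in the 3 comparisons. The cause of these changes was not tested. Signal over background limits what can be read for Rps16 and Rpl3l, which lay at background, and the size of the Rpl39l differences, whose base lay there.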
